A study of Mus musculus with 9 samples.

Results

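The fatty acid oxidation genes are a list of 45 mouse genes that covers fatty acid activation, the carnitine shuttle, mitochondrial and peroxisomal beta-oxidation, the steps that use propionate, and a pair of regulators. They were taken by gene name from a count table of 54532 genes, and all 45 were found in it. Of these, 44 were among the 15909 genes with enough counts to be tested, and Acsl6, a synthetase known from brain, was not. Fold changes are given as log2 of ELA over control, so a positive value means more transcript in ELA, and coordinates are on GRCm38.

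A fatty acid is first joined to coenzyme A by an acyl-CoA synthetase. Long chains then enter mitochondria as carnitine esters, made on the outer membrane and turned back into acyl-CoA on the inner membrane. Inside, a cycle of dehydrogenation, hydration, a further dehydrogenation and thiolysis releases acetyl-CoA, and its first step passes electrons through the electron transfer flavoprotein to the respiratory chain. Very long and branched chains are first shortened in peroxisomes. Ameloblasts, the cells that secrete and then mineralize enamel, are rich in mitochondria when they move ions during mineralization.

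The samples were enamel organs, the epithelium that forms enamel, dissected from the first molars of male pups at postnatal day 12 (P12). The 5 ELA pups were raised under early life adversity, with little bedding and nesting material from P2 to P12, and the 4 controls were raised in standard cages. All pups of both groups were C57BL/6 and carried Crh-IRES-Cre together with an Ai14 tdTomato reporter from their parents, so both alleles are shared by the comparison. Polyadenylated RNA was sequenced in 1 library per mouse. The treatment notes in the labels give the ELA pups a lower mean body weight, while the study set aside its lightest ELA mice and calls the controls matched for weight. Weights of single mice were not used here, so the part of body weight in the values below was not tested. Library totals ranged from 18056774 to 32110160 counts for ELA mice and from 18683431 to 20831736 for controls. Levels of 1 gene are given as CPM, counts scaled to library totals with TMM factors, and levels between genes as TPM, which also divides by gene length.

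Both groups expressed ameloblast markers at high levels, so the tissue was as labelled, but the summed levels of several marker lists differed. The 4 secretory-stage markers (Amelx, Ambn, Enam and Mmp20) summed to 71300 to 130000 CPM in ELA and 50300 to 64500 CPM in controls. These sums did not overlap, and Ambn makes up most of them. Taken singly, Amelx and Enam did not overlap between groups. Ambn (55500 to 90400 CPM in ELA, 41200 to 55900 CPM in controls) and Mmp20 (197 to 347 and 223 to 302 CPM) did. All 10 markers of dental mesenchyme and fibroblasts had a negative log2 fold change. Of them 6 were lower at an unadjusted p below 0.05 by edgeR, where 2.89% of all genes were. Their sum was 12000 to 23400 CPM in ELA against 15700 to 31000 CPM in controls. The 7 erythroid markers summed to 171 to 400 CPM in ELA and 372 to 886 CPM in controls. The 10 neuronal markers reached 704 CPM in ELA mouse 4, against 66.4 to 122 CPM in the other mice. Of 9 adipocyte markers, 7 stayed under 1 CPM in every mouse and Lep was at 0, with sums of 6.78 to 13.5 CPM in ELA and 7.03 to 10.5 CPM in controls. Skeletal muscle markers (79.3 to 115 CPM in ELA, 31.2 to 137 CPM in controls, Tnnc2 at 0), macrophage markers (195 to 262 and 195 to 267 CPM), endothelial markers (314 to 364 and 297 to 380 CPM) and maturation-stage ameloblast markers (24600 to 43000 and 29900 to 41600 CPM) overlapped between groups. Odam and Amtn make up most of the maturation-stage sum. In that list Car6 did not overlap, at 52.9 to 175 CPM in ELA and 24.5 to 37 CPM in controls. At an unadjusted p below 0.05 by edgeR, 2 of 7 tested maturation-stage markers were higher, against 3.56% of all genes, and 0 were lower. In bulk RNA, more cells of a type and more RNA per cell cannot be told apart. The part that this mixture plays in the values below was not tested.

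No fatty acid oxidation gene passed the threshold. With edgeR's quasi-likelihood test and Benjamini-Hochberg adjustment over 15909 genes, 0 of 44 members had an adjusted p below 0.05 in either direction, and the smallest was 0.371, for Decr2. Over all tested genes 0.0377% of genes passed as higher and 0.0251% as lower. DESeq2 also called 0 members, with a smallest adjusted p of 0.102 and 0.89% of all genes called. Limma-voom called 0, with a smallest adjusted p of 0.437 and 0.0566% of all genes called.

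At an unadjusted p below 0.05, 6 of 44 members were higher in ELA by edgeR, where 3.56% of all genes were, and 0 were lower, where 2.89% of all genes were. These 6 were Decr2, Acot7, Ppargc1a, Etfdh, Ivd and Hadha. DESeq2 gave the same 6 members as higher, where 3.85% of all genes were, and limma-voom gave these and Ppara, where 3.02% of all genes were. Neither tool gave a member as lower. Every ELA mouse stood above every control mouse for 4 members (Decr2, Acot7, Ivd and Hadha), against 1.39% of all genes, and below every control mouse for 0, against 1.29% of all genes. The log2 fold change was positive for 29 of 44 members, against 52.6% of all genes, and its median was 0.104, against 0.013 over all genes. Without TMM scaling, on plain library totals, 24 of 44 were positive and the members' median was 0.039, against -0.049 over all genes.

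**Figure D1:**
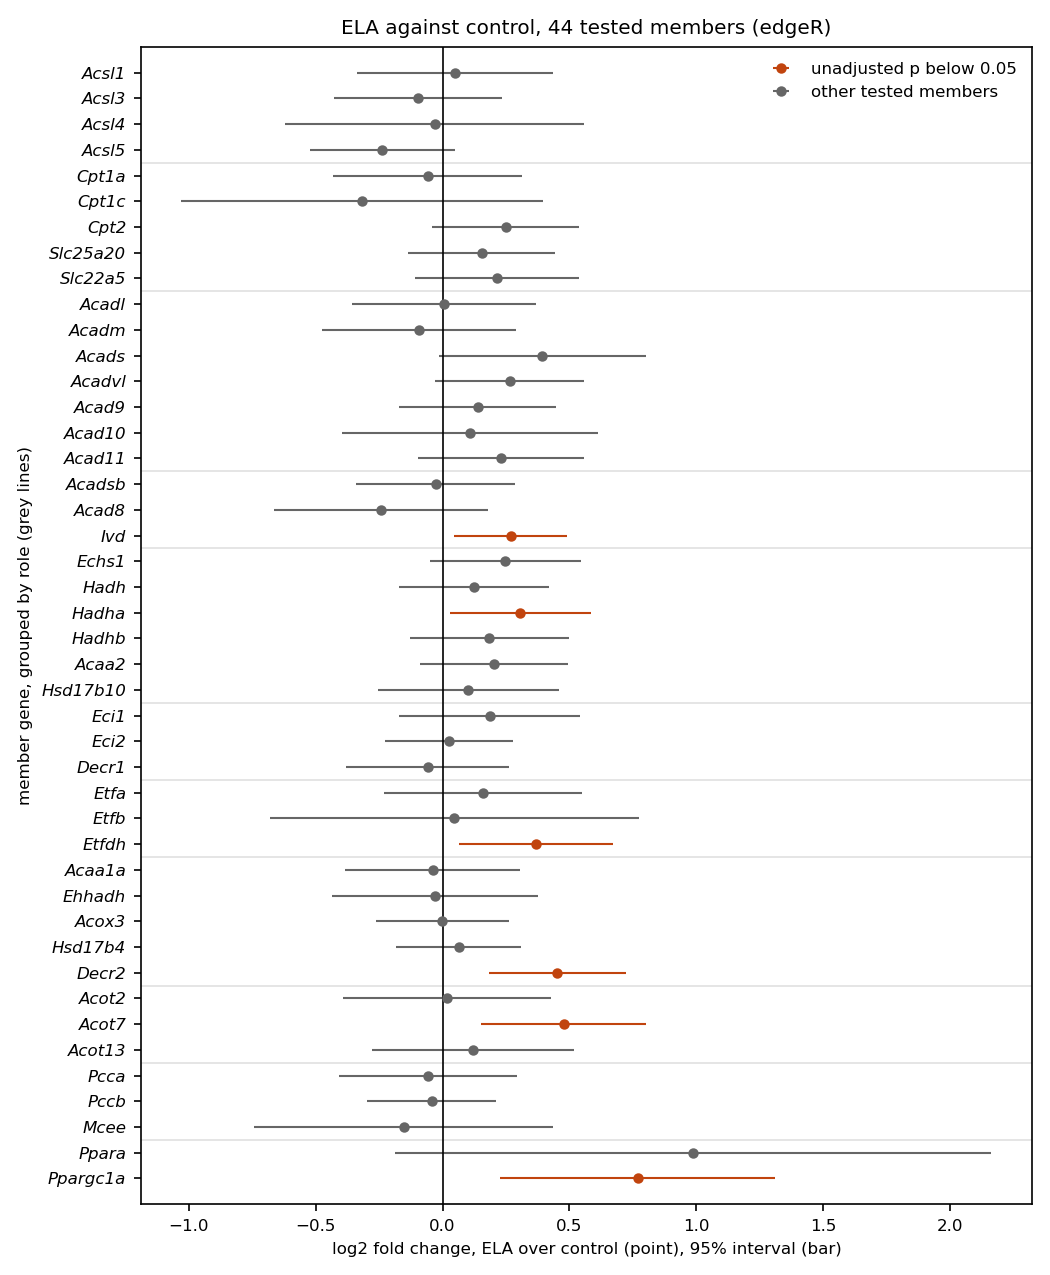
Log2 fold change of ELA over control (points) with its 95% interval (bars) for the 44 tested fatty acid oxidation genes, grouped by role and separated by grey lines. Orange marks the 6 members with an unadjusted p below 0.05, whose bars stay to the right of 0. Ppara, near the bottom, has the widest bar.

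The fits were precise enough to bound most members. The standard error of the log2 fold change had a median of 0.151 and ran from 0.103 for Ivd to 0.539 for Ppara. The 95% interval lay within a 2-fold change in both directions for 41 of 44 members and within a 1.5-fold change for 31. Its upper bound passed 2-fold only for Ppargc1a, at 2.48-fold, and Ppara, at 4.48-fold, and its lower bound passed it only for Cpt1c, at 0.49-fold. An interval of this width bounds a change in each transcript and does not show that the groups were alike.

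Among themselves the members spanned a wide range of transcript levels. Per length, the mitochondrial thiolase Acaa2 was the most abundant in controls at 158 ± 4.88 TPM (SD, n = 4), followed by the long-chain dehydrogenase Acadl at 113 ± 15.1 TPM. The thioesterase Acot13 (109 ± 12.2 TPM), the flavoprotein subunit Etfa (106 ± 14.4 TPM), Cpt1a (103 ± 7.26 TPM) and the dehydrogenase Hsd17b10 (103 ± 10.3 TPM) came next, and the ranges of mean ± SD of these 4 and of Acadl overlapped. At the other end stood Acad10 at 2.55 ± 0.879 TPM, the nuclear receptor Ppara at 0.581 ± 0.484 TPM and Acsl6 at 0.0731 ± 0.0481 TPM. Gene length here is the length deposited in the table, which for 41 of 45 members equals all annotated exons joined, so a gene with long alternative exons reads low. The place of Cpt1a rests on an exception, since its deposited length is 4300 bases and its joined exons cover 7642, on which its level would be 58 ± 4.09 TPM and its place 9 rather than 5. On joined exons Eci1 would likewise be at 34.1 and not 66.5 TPM, and Decr2 at 27.3 and not 31.6 TPM, while Acaa2 differed by a single base. TPM also divides by a total in which the secretory enamel transcripts took a larger share in ELA, so a TPM can be lower in ELA where the scaled CPM is not.

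**Figure D2:**
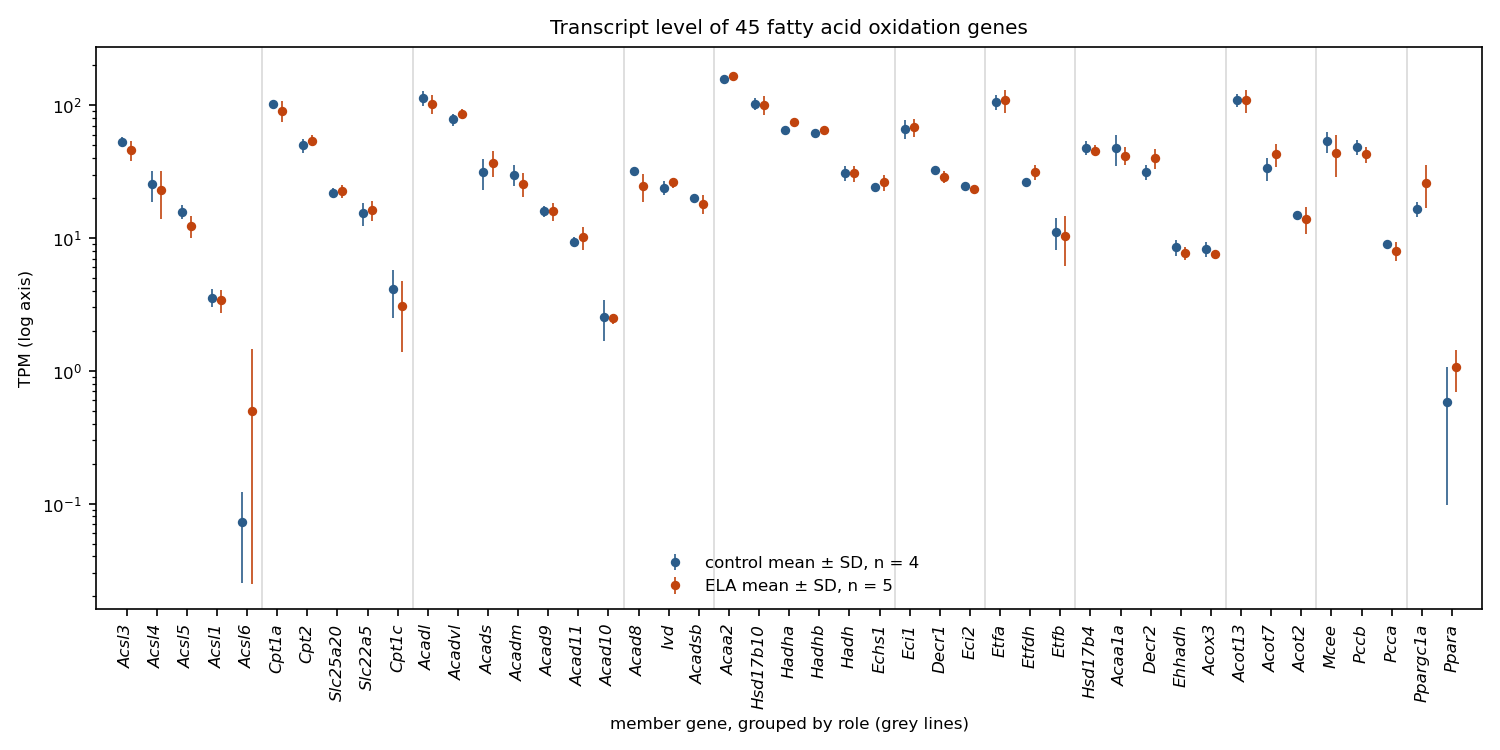
Transcript level in TPM (log axis) of all 45 fatty acid oxidation genes, grouped by role and ordered by the control mean within each group. Points are group means (control n = 4, ELA n = 5) and bars are SD, shortened at the lower end where the SD comes close to or passes the mean, as for Acsl6 in ELA. Most members lie between 10 and 158 TPM in controls, and the group means lie close together for nearly all.

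The acyl-CoA synthetases, which activate long-chain fatty acids, had 1 positive log2 fold change among 4 tested and a median of -0.064. In controls Acsl3 was the most abundant at 53.2 ± 4.48 TPM, followed by Acsl4, which prefers arachidonate, at 25.3 ± 6.60 TPM, Acsl5 at 15.8 ± 1.79 TPM and Acsl1, the main form of fat and liver, at 3.56 ± 0.554 TPM. Acsl5 measured 19.5, 29.0, 22.5, 24.5 and 22.3 CPM in ELA mice 1 to 5 and 26.8, 26.9, 29.7 and 27.6 CPM in control mice 1 to 4. All ELA mice but mouse 2 lay below every control. Its log2 fold change was -0.24 ± 0.131 (SE), with an unadjusted p of 0.0966 and an edgeR adjusted p of 0.851. It was the only member with an unadjusted p below 0.05 in the lower direction in any fit, which happened when ELA mouse 2 was left out and 3.26% of all genes were lower. Acsl1, Acsl3 and Acsl4 had log2 fold changes of 0.05, -0.10 and -0.03.

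Acsl6 was close to silent. It measured 0.109, 0.109, 0.468, 7.65 and 0.494 CPM in ELA mice 1 to 5 and 0.264, 0.0482, 0.5 and 0.24 CPM in control mice 1 to 4, and its counts ran from 1 to 175. The single high mouse, ELA mouse 4, is the library in which the neuronal markers reached 704 CPM.

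The carnitine shuttle had 3 positive log2 fold changes among 5 and a median of 0.154. Cpt1a makes the carnitine ester on the outer membrane, is the step inhibited by malonyl-CoA, and is held to set the rate of the pathway. It measured 211, 140, 151, 136 and 139 CPM in ELA mice 1 to 5 and 163, 176, 184 and 124 CPM in control mice 1 to 4. ELA mouse 1 was the highest of all and the other ELA mice lay inside the control range, so the groups overlapped. In the fit this was a log2 fold change of -0.06 ± 0.170 (SE), with an interval from 0.742-fold to 1.24-fold. It ranged from -0.19 without ELA mouse 1 to 0.00785 without control mouse 3, so no direction can be given.

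Cpt2, which turns the ester back into acyl-CoA on the inner membrane, measured 57.7, 44.2, 59.5, 45.3 and 50.2 CPM in ELA and 49.5, 40.0, 44.2 and 39.2 CPM in controls. ELA mice 1, 3 and 5 lay above every control and the other 2 inside the control range. Its log2 fold change was 0.25 ± 0.132 (SE), with an unadjusted p of 0.0845. The translocase Slc25a20, which carries the ester across the inner membrane, and the plasma membrane carnitine carrier Slc22a5 had log2 fold changes of 0.15 and 0.21. Cpt1c, a form known from neurons that lies on the endoplasmic reticulum, measured 3.56, 4.98, 5.04, 11.1 and 8.19 CPM in ELA and 7.01, 9.2, 5.55 and 11.0 CPM in controls. ELA mouse 4 was again the highest. The log2 fold change of Cpt1c was -0.32 ± 0.327 (SE) with all mice and -0.58 without ELA mouse 4, and neither had an adjusted p below 0.05 by edgeR.

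The straight-chain acyl-CoA dehydrogenases carry out the first step of each turn of the cycle, each on its own range of chain lengths. Of 7 tested, 6 had a positive log2 fold change, and the median was 0.14. Acads, the short-chain enzyme, measured 25.4, 30.2, 43.5, 26.6 and 40.9 CPM in ELA and 21.5, 23.9, 25.7 and 30.4 CPM in controls. ELA mice 3 and 5 stood above all controls, and the rest overlapped them. Its log2 fold change was 0.39 ± 0.186 (SE) with an unadjusted p of 0.0571, and the adjusted p by edgeR was 0.801.

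Acadvl, the very-long-chain enzyme bound to the inner membrane, measured 87.5, 89.7, 107, 77.3 and 98.1 CPM in ELA and 68.1, 77.7, 91.4 and 68.6 CPM in controls. The same mice, ELA 3 and 5, lay above every control, and control mouse 3 was the highest of its group. For Acadvl the log2 fold change was 0.26 ± 0.134 (SE), with an unadjusted p of 0.0728. Exons of Dvl2 on the other strand cover 42.9% of the exon bases of Acadvl, and since the strand setting of the counting is not known, reads of the pair may not be told apart.

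Acadm, the medium-chain enzyme, measured 28.5, 45.7, 45.4, 31.7 and 47.3 CPM in ELA and 37.2, 50.6, 38.6 and 43.3 CPM in controls. ELA mice 1 and 4 lay below every control, and the others inside the control range. Its log2 fold change of -0.09 ± 0.175 (SE) turned positive without ELA mouse 1 (0.0078) or control mouse 2 (0.000242), so it too has no direction. Acad11, which acts on very long chains, measured 50.9, 35.8, 35.6, 41.6 and 32 CPM in ELA and 37.9, 32.9, 33.9 and 29.1 CPM in controls, with ELA mice 1 and 4 above all controls and a log2 fold change of 0.23. Acadl, Acad9 (also an assembly factor of respiratory complex I) and Acad10 had log2 fold changes of 0.00, 0.14 and 0.11.

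The branched-chain dehydrogenases act on products of leucine, valine and isoleucine, and 1 of 3 had a positive log2 fold change. Ivd, isovaleryl-CoA dehydrogenase of the leucine route (ENSMUSG00000027332, chr2:118861954-118882909, plus strand), measured 53.4, 53.5, 63.6, 54.7 and 60.0 CPM in ELA and 46.8, 46.3, 48.6 and 47.9 CPM in controls. The 4 controls lay within a narrow band and all ELA mice stood above it. This gave a log2 fold change of 0.27 ± 0.103 (SE), the smallest standard error of any member, with an unadjusted p of 0.0235 and an edgeR adjusted p of 0.659. Acad8, for valine, and Acadsb, for isoleucine, had log2 fold changes of -0.24 and -0.03, so the 3 enzymes of these parallel routes did not share a sign. In the breakdown of branched-chain amino acids as a whole, 11 of 16 tested genes had a positive log2 fold change, with a median of 0.108. By edgeR 0 had an adjusted p below 0.05. At an unadjusted p below 0.05, 0 were higher, against 3.56% of all genes. Lower was 1 (Bcat1, the cytosolic transaminase, at -0.74), against 2.89% of all genes. That list also holds Hsd17b10, a member.

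The upstream bases of Ivd are shown because this gene had the tightest difference. They are the part outside annotated exons of the 250 bases before its RefSeq start (GRCm38.p6), chr2:118861744-118861953 on the plus strand, and capitals mark matches to the CCAAT box read on the other strand.
Ivd: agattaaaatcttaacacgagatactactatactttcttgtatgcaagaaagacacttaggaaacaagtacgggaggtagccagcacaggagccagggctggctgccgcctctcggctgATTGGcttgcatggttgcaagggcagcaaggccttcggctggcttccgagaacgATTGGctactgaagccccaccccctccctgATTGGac
The stretch holds 3 such matches. The letters CCAAT, on either strand, stood in the 250 upstream bases of 20 of the 40 members with a RefSeq entry (50%), against 39.9% of 11432 tested genes and 37.5% of all 27025 genes in the RefSeq set.

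All 6 enzymes of the rest of the mitochondrial cycle had a positive log2 fold change, from 0.10 to 0.31, with a median of 0.194. Hadha (ENSMUSG00000025745, chr5:30118304-30155162, minus strand) is the alpha subunit of the trifunctional protein, which carries out the last 3 steps on long chains. It measured 268, 246, 283, 239 and 251 CPM in ELA and 212, 212, 236 and 173 CPM in controls. All ELA mice stood above all controls, though ELA mouse 4 and control mouse 3 were only 239 and 236 CPM. The log2 fold change was 0.31 ± 0.128 (SE), with an unadjusted p of 0.0337 and an adjusted p of 0.701 by edgeR.

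Hadhb, the beta subunit of the same protein, had a log2 fold change of 0.18 ± 0.144 (SE) and an unadjusted p of 0.224. ELA mice ranged from 142 to 192 CPM and controls from 121 to 166 CPM, with overlap. Per length the subunits were close, at 65.2 ± 3.16 TPM for Hadha and 61.7 ± 2.85 TPM for Hadhb in controls, and 74.4 ± 3.00 and 64.5 ± 4.40 TPM in ELA. The genes lie head to head on chromosome 5, with annotated starts 86 bases apart on opposite strands, so the same short stretch lies upstream of both. It is shown for that reason, from chr5:30155163-30155247 on the plus strand as Hadhb reads it, outside the exons of either gene, with the GC box GGGCGG in capitals.
Hadhb: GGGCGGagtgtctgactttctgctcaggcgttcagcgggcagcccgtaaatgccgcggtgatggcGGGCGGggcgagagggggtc
It holds 2 GC boxes. Across members the GC box, on either strand, was in 29 of 40 upstream windows (72.5%), against 62.4% of tested genes and 35.4% of all genes in the set, while the TATA box TATAAA was in 0, against 8.27% and 14.3%.

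The hydratase Echs1 measured 72.4, 89.5, 104, 71.2 and 93.8 CPM in ELA and 68.0, 78.9, 75.7 and 68.0 CPM in controls. ELA mice 2, 3 and 5 lay above every control, and the log2 fold change was 0.25 with an unadjusted p of 0.096. The thiolase Acaa2 measured 104, 108, 111, 80.9 and 98.4 CPM in ELA and 90.5, 95.5, 92.2 and 71.1 CPM in controls. All ELA mice but mouse 4 exceeded every control, and the log2 fold change was 0.20 with an unadjusted p of 0.154. Hadh, the short-chain hydroxyacyl-CoA dehydrogenase, and Hsd17b10, which also serves in mitochondrial RNA processing, had log2 fold changes of 0.12 and 0.10. The auxiliary enzymes for unsaturated chains, the isomerases Eci1 and Eci2 and the reductase Decr1, had 0.19, 0.03 and -0.06.

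Electron transfer from the acyl-CoA dehydrogenases to ubiquinone uses the flavoprotein subunits Etfa and Etfb and the membrane enzyme Etfdh. Etfdh (ENSMUSG00000027809, chr3:79603788-79629500, minus strand) measured 89.9, 76.8, 113, 84.5 and 99.3 CPM in ELA and 67.3, 80.9, 76.8 and 62.7 CPM in controls. ELA mouse 2 lay inside the control range and the other 4 above it. In the fit this was a log2 fold change of 0.37 ± 0.139 (SE), with an unadjusted p of 0.0216 and an edgeR adjusted p of 0.644. Etfa and Etfb had 0.16 and 0.05. The partner subunits differed widely in level, at 106 ± 14.4 TPM for Etfa and 11.1 ± 2.99 TPM for Etfb in controls. Other annotated genes on the same strand cover 58.2% of the exon bases of Etfb, and whether its reads were lost to them was not tested.

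A further motif, the core GCATGCGC of the nuclear respiratory factor NRF1, was in the upstream window of 6 of 40 members on either strand (15%), namely Acad10, Acadm, Etfa, Etfdh, Pccb and Ppara, against 4.64% of tested genes and 2.56% of all genes. The windows of Etfa (chr9:55512244-55512493) and Acadm (chr3:153944644-153944893), both on the minus strand, are shown because neither touches an annotated exon, with the core in capitals.
Etfa: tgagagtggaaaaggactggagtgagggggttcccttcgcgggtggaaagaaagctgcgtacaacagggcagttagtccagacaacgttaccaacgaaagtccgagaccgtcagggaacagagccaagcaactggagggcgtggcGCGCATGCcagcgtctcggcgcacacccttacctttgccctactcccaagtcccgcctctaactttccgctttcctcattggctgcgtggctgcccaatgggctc
Acadm: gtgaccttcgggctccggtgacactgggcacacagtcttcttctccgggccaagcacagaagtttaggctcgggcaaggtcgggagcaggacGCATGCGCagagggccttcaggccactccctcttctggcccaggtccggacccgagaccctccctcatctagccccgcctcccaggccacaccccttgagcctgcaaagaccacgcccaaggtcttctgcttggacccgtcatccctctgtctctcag
Etfa carries the match on the opposite strand and Acadm on its own. Of the 6 carriers, Acadm (-0.09 ± 0.175, SE) and Pccb (-0.04 ± 0.117, SE) had negative log2 fold changes, each smaller than its standard error. The others had positive ones, and whether carriers share a direction was not tested. The ETS letters CCGGAAGT were in 2 windows (Cpt2 and Slc25a20, 5%), against 6.18% of tested genes, and the estrogen-related receptor letters TCAAGGTCA in 1 (Acsl6, 2.5%), against 0.306%. No window held 2 copies of AGGTCA spaced by 1 base, the form read by PPAR receptors, against 0.0437% of tested genes. Exact letters this rare could hardly be met in 40 windows, so their absence says nothing about PPAR sites of the members. These are matches of letters and not measured binding.

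Among the peroxisomal enzymes 2 of 5 had a positive log2 fold change, and the median was 0. Decr2, the peroxisomal dienoyl-CoA reductase for chains with double bonds (ENSMUSG00000036775, chr17:26081211-26090329, minus strand), had the smallest p of any member. It measured 37.3, 38.1, 35, 40 and 28.4 CPM in ELA and 26.8, 26.0, 25.1 and 26.6 CPM in controls. The controls differed by less than 2 CPM, and ELA mouse 5 was the only ELA mouse close to them. For Decr2 the log2 fold change was 0.45 ± 0.124 (SE), or 1.37-fold (95% interval 1.13 to 1.65), with an unadjusted p of 0.00342 and an edgeR adjusted p of 0.371. Leaving out any 1 mouse kept the unadjusted p at 0.0117 or below.

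The other peroxisomal members had smaller values. The thiolase Acaa1a, the bifunctional enzymes Ehhadh and Hsd17b4 and the branched-chain oxidase Acox3 had log2 fold changes of -0.04, -0.03, 0.06 and 0.00. The mitochondrial counterpart of Decr2, Decr1, was at -0.06. Differences between members in their response were not tested. Among 19 genes of peroxisome assembly 8 had a positive log2 fold change, with a median of -0.042. By edgeR 0 of them had an adjusted p below 0.05. At an unadjusted p below 0.05 there was 1 higher, against 3.56% of all genes, and 0 lower, against 2.89%. Acaa1a has a close copy, Acaa1b, and Acot2 has Acot1, so reads may have been shared between them in counting.

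Acyl-CoA thioesterases release the fatty acid from coenzyme A again, and all 3 had a positive log2 fold change. Acot7, a cytosolic form abundant in brain (ENSMUSG00000028937, chr4:152178134-152271855, plus strand), measured 30.0, 29.6, 39.4, 37.9 and 42.0 CPM in ELA and 22, 23.8, 29.0 and 28.0 CPM in controls. All ELA mice were above all controls, by less than 1 CPM at the closest. This gave a log2 fold change of 0.48 ± 0.148 (SE), or 1.39-fold (95% interval 1.11 to 1.74), with an unadjusted p of 0.00765 and an edgeR adjusted p of 0.482. Values also went with the number that opens a mouse's title, which the labels do not explain. ELA mice 1 and 2 share a number, as do ELA mice 3 to 5, control mice 1 and 2, and control mice 3 and 4, and in both groups mice 1 and 2 were the lowest. Each number occurs in 1 group only, with a pair of numbers in each group, so ELA and control mice cannot be compared within a number. With counts summed per title number, the unadjusted p of Acot7 was 0.0468. Acot13 and the mitochondrial Acot2 had log2 fold changes of 0.12 and 0.02.

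The enzymes that use propionate, from odd chains and from branched amino acids, had 0 positive log2 fold changes among 3. The carboxylase subunits Pcca and Pccb had -0.06 and -0.04, and the epimerase Mcee had -0.15. None had an unadjusted p below 0.05, and the smallest of the 3 was 0.581.

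Both regulators had larger log2 fold changes than any enzyme. Ppargc1a (ENSMUSG00000029167, chr5:51454250-51567726, minus strand) encodes the coactivator that drives mitochondrial and fatty acid oxidation genes in many tissues. It measured 98.3, 43.2, 76.2, 78.6 and 44.1 CPM in ELA and 48.3, 38.6, 41.5 and 31.4 CPM in controls. ELA mice 1, 3 and 4 lay well above every control, while ELA mice 2 and 5 lay inside the control range. The log2 fold change was 0.77 ± 0.247 (SE), or 1.70-fold (95% interval 1.17 to 2.48), with an unadjusted p of 0.00944 and an edgeR adjusted p of 0.516. The split among ELA mice did not follow the title numbers, since mice 1 and 2 share a number.

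Ppara encodes the nuclear receptor that fatty acids activate and that induces many of these enzymes in liver. It measured 1.53, 1.42, 1.04, 2.19 and 1.70 CPM in ELA and 1.74, 0.53, 0.15 and 0.767 CPM in controls. Control mouse 1 lay inside the ELA range and the other controls below it. In the fit this was a log2 fold change of 0.99 ± 0.539 (SE), with an unadjusted p of 0.0921 by edgeR and 0.0247 by limma-voom. These values rest on 3 to 55 counts per mouse, and the fold change was 1.70 on the log2 scale without control mouse 1 and 0.64 without control mouse 3.

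**Figure D3:**
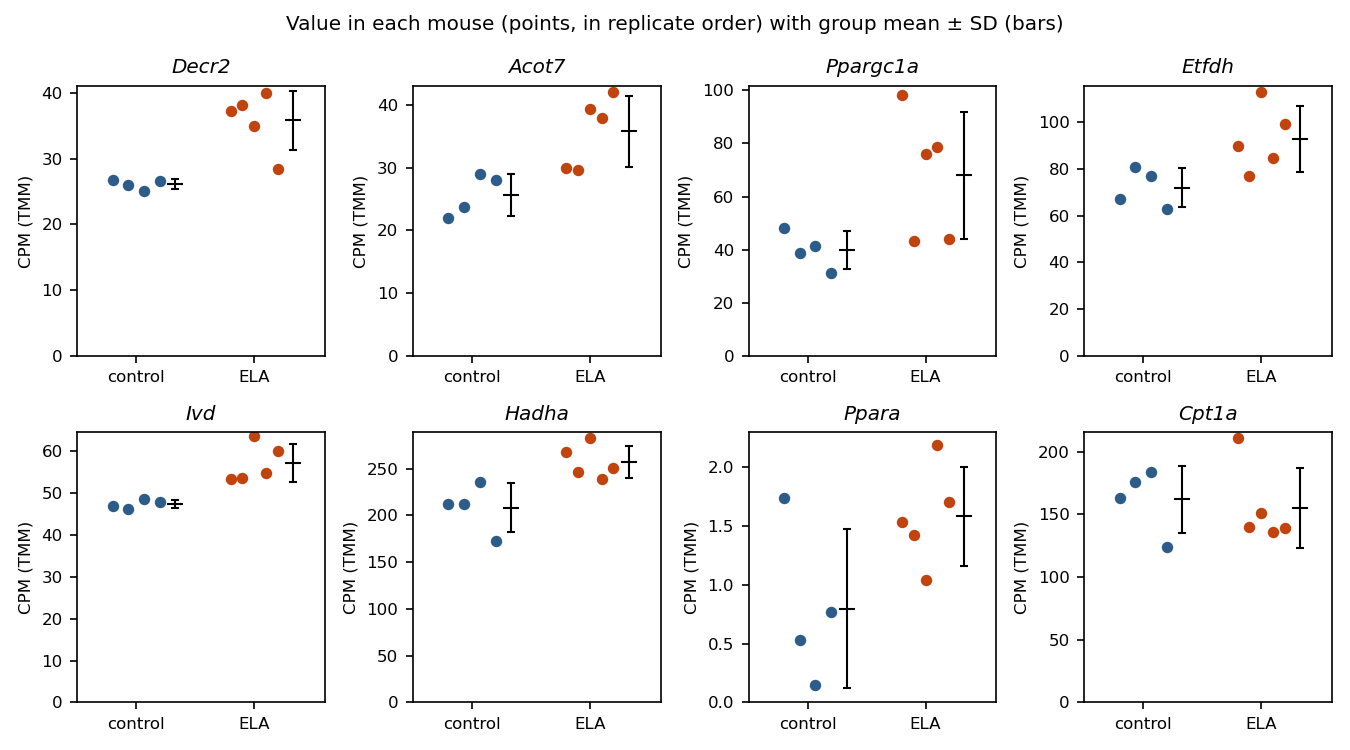
CPM (TMM scaled) in each mouse for 8 members, with points in replicate order from left to right and bars giving the group mean ± SD beside them (control n = 4, ELA n = 5). Decr2, Acot7, Ivd and Hadha show no overlap between groups, Ppargc1a has 2 ELA mice among the controls, and Cpt1a overlaps apart from ELA mouse 1 at 211 CPM.

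Of the 6 members with an unadjusted p below 0.05, Decr2, Acot7 and Ppargc1a kept it in 9 of 9 fits without a given mouse. Ivd and Etfdh kept it in 6 of 9 and Hadha in 5 of 9. All of Ivd, Etfdh and Hadha lost it without ELA mouse 3 or control mouse 1, Ivd and Hadha also without control mouse 2, and Etfdh and Hadha also without control mouse 4. Over all members 3 were higher at this threshold without ELA mouse 3, where 3.4% of all genes were, and 9 without ELA mouse 4, where 2.74% were. The members' median log2 fold change was 0.059 in the former fit and 0.146 in the latter. With counts summed per title number 4 were higher (Decr2, Acot7, Ppargc1a and Etfdh), against 3.2% of all genes.

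Mouse by mouse, the members did not separate the groups. The median over the 44 tested members of log2 CPM, relative to the control mean, was 0.101, 0.104, 0.287, -0.067 and 0.183 in ELA mice 1 to 5 and -0.042, 0.036, 0.08 and -0.14 in control mice 1 to 4. ELA mouse 4 lay below 3 of the controls, and the other ELA mice above all of them. The number of members above their control mean was 28, 31, 36, 18 and 32 of 44 in ELA mice 1 to 5 and 18, 26, 33 and 15 in control mice 1 to 4.

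**Figure D4:**
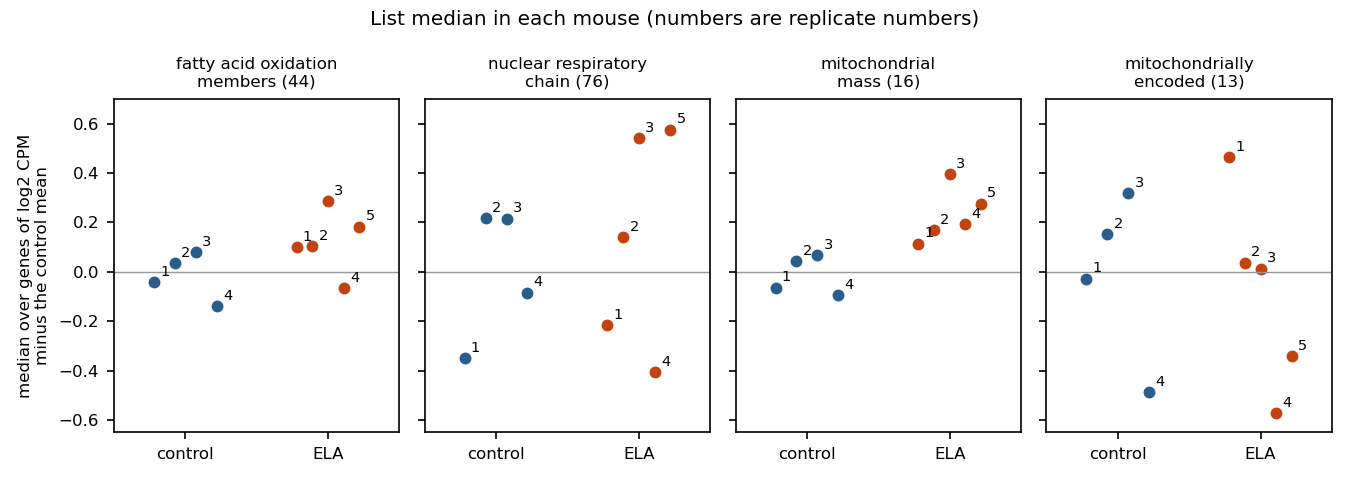
Median log2 CPM minus the control mean in each mouse (points, with replicate numbers) for the tested fatty acid oxidation genes and for 3 mitochondrial lists. For the members ELA mouse 4 (-0.067) lies among the controls, for the mitochondrial mass list all ELA mice (0.114 to 0.394) lie above all controls (-0.093 to 0.068), and for the respiratory chain and the mitochondrially encoded genes the groups overlap.

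The other mitochondrial lists had medians on both sides of that of the members, and differences between lists were not tested. Of 16 genes of mitochondrial mass (import, chaperones, cristae and citrate synthase), 16 had a positive log2 fold change, with a median of 0.231, and 5 had an unadjusted p below 0.05 as higher, led by Immt, which shapes cristae (0.40), and citrate synthase Cs (0.32). Of 76 nuclear-encoded respiratory chain genes, 71 were positive with a median of 0.168, and 6 were higher and 0 lower at an unadjusted p below 0.05. In neither list did edgeR give an adjusted p below 0.05. Over all tested genes 52.6% were positive, and 3.56% were higher and 2.89% lower at an unadjusted p below 0.05. Genes of a list were measured in the same mice, so a run of one sign is not a run of independent results. The 13 mitochondrially encoded genes had 5 positive values and a median of -0.049. Of them 0 passed an unadjusted p of 0.05 or the edgeR threshold. Their mean levels in ELA ran from 0.929 CPM for mt-Atp8 and 44.2 CPM for mt-Co2 to 15600 CPM for mt-Co1. Whether reads of the low ones were lost in counting, which would also lower the share below, was not tested. Without ELA mouse 4, an alternative chosen after seeing the data, the medians were 0.287 for mitochondrial mass, 0.301 for the respiratory chain and 0.031 for the mitochondrially encoded genes. The share of all counts from the last was 4.25 ± 1.06% in ELA (SD, n = 5) and 4.54 ± 0.88% in controls (SD, n = 4), with p = 0.651 by a two-sided exact permutation test, for which 0.0159 is the smallest p possible.

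Genes around the pathway were counted in the same way, and in all of these lists edgeR gave 0 genes with an adjusted p below 0.05. Of 30 tested further genes of fatty acid oxidation 15 had a positive log2 fold change, against 52.6% of all genes, with a median of -0.005. At an unadjusted p below 0.05, 2 were higher, against 3.56% of all genes, and 1 was lower, against 2.89%. The first by p were Phyh, which starts the breakdown of phytanate in peroxisomes (0.47), and Acss1, the mitochondrial acetyl-CoA synthetase (-0.85). Fatty acid uptake and storage had 8 of 15 positive (median 0.118), the malonyl-CoA and AMP kinase genes that control Cpt1a had 8 of 10 (median 0.058), and carnitine synthesis had 2 of 2 (median 0.196). In these 3 lists 0 genes had an unadjusted p below 0.05. Without ELA mouse 4 the further oxidation genes had 16 of 30 positive with a median of 0.042.

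Among 17 nuclear receptors and coactivators that work with Ppara and Ppargc1a, 15 had a positive log2 fold change, with a median of 0.221. At an unadjusted p below 0.05, 3 were higher, against 3.56% of all genes, and 0 were lower, against 2.89%. They were led by Esrrg, an estrogen-related receptor, at 2.47, and by Lpin1, a phosphatidate phosphatase that also acts as a coactivator, at 0.36. ELA mouse 4 set the value of Esrrg, with 8.22 CPM against 0.328 to 1.48 CPM in the other ELA mice and 0.15 to 0.626 CPM in controls, and without that mouse it was 0.95 with an unadjusted p of 0.124. Without it the list had 13 of 17 positive, with a median of 0.177 and 1 gene higher at an unadjusted p below 0.05. Of 12 tested targets of PPAR alpha outside oxidation 7 were positive, with a median of 0.148, and 1 was higher and 2 lower at an unadjusted p below 0.05. Pdk4, the kinase that spares glucose when fat is burned, had -0.50 (10.8 ± 1.31 CPM in ELA and 15.3 ± 2.85 CPM in controls). Without ELA mouse 4, 9 of the 12 targets were positive, with a median of 0.167. Whether the targets went with Ppara or Ppargc1a was not tested.

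**Figure D5:**
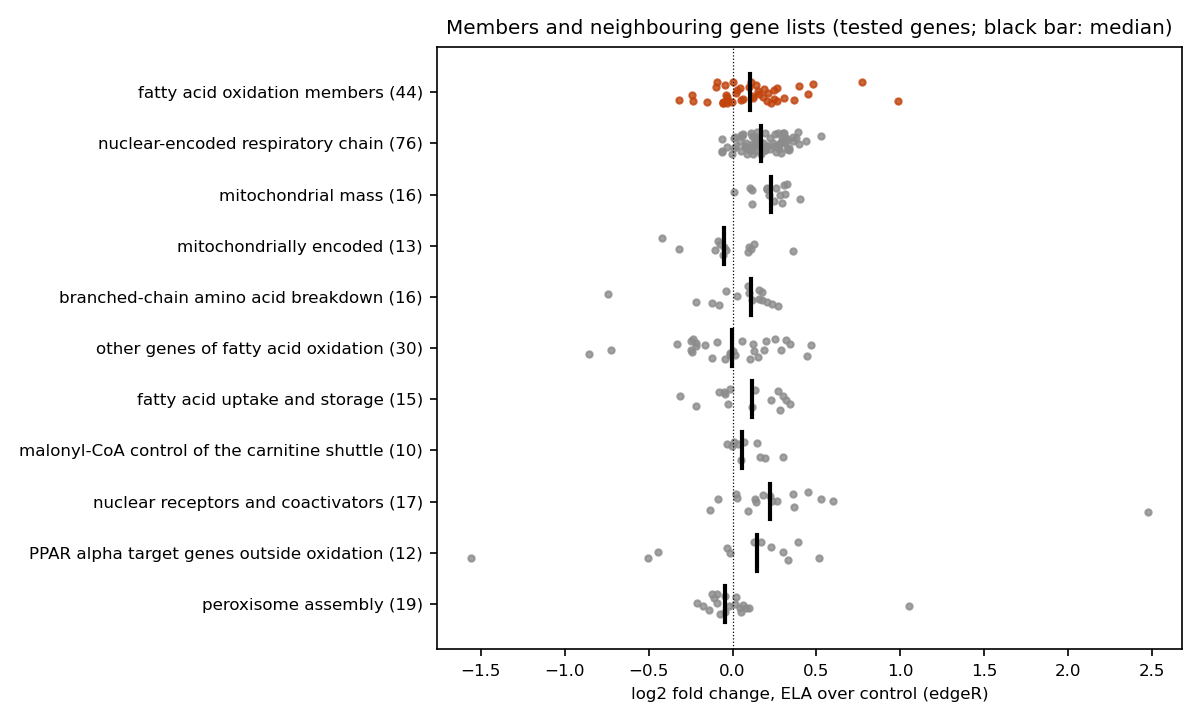
Log2 fold change of ELA over control for each tested gene (points) of the 44 fatty acid oxidation members, in orange, and of 10 neighbouring lists, in grey, with the median as a black bar and the number of tested genes in brackets. The medians run from -0.049 for mitochondrially encoded genes to 0.231 for mitochondrial mass, with 0.104 for the members, and single genes such as Esrrg (2.47, set by ELA mouse 4) lie far from their list.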

How the data were processed

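The authors deposited whole-number counts per Ensembl gene, made by a sequencing company. The submitters' processing notes name CASAVA, HISAT and HISAT2. The program that counted reads, whether it used strand, and the build were not given in the sources used here. Coordinates matched GENCODE M21 (GRCm38) for 98.2% of genes. Columns were matched to mice by title, and 0 were unassigned. Columns of gene annotation gave names, positions and lengths.

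The counts were tested with edgeR 4.0.16 in R 4.3.3: filterByExpr at a count minimum of 10, TMM, a robust quasi-likelihood fit and Benjamini-Hochberg adjustment over all tested genes, at a threshold of 0.05. DESeq2 1.42.0, the tool of the study's methods, and limma-voom 3.58.1 were alternatives, with other scalings, no filter, counts summed per title number and leaving out each mouse. Each tool was tested on simulated data, in which DESeq2 made more false calls than its nominal share. Log2 CPM used a prior count of 2.

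The members and the lists were chosen with earlier results of these data known, so lists were described by counts and medians with no test over them. Values per mouse are given for the 14 members with the smallest p and for Cpt1a, Cpt2, Acadvl, Acadm, Hadha, Ppara, Ppargc1a, Cpt1c and Acsl6 (18 in all). Outside the members, at most the 2 genes with the smallest p of a list are named. An item withheld here is not reported. The close copies Acaa1b and Acot1 and the overlapping gene Dvl2 were named after the values were seen. Promoters came from RefSeq (GRCm38.p6), which held 40 of 45 members, without Acaa2, Acad9, Acot13, Decr1 and Hsd17b4. Pairs of libraries within a group differed far beyond sampling noise, with a chi-square per degree of freedom of 21.3 to 134. The p-values treat each mouse as independent and set the group difference against the spread between mice within the groups. The labels do not say which of them shared a litter. For its qPCR the study names 2 litters in each group, with the same numbers of mice as here, and whether the title numbers mark these litters is not stated. If they do, the fit on counts summed per title number is the one that compares litters.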

Additional observations from a re-analysis of the deposited data

Results flagged for a closer look

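In 36 sets of values (the members given per mouse, in ELA and in controls), a mouse was looked for whose gap to its nearest neighbour took up most of the range of its group. There were 2 such mice, and chance gives about 1 in 20 sets. Cpt1a was 211 CPM in ELA mouse 1, where the other ELA mice lay between 136 and 151 CPM, a gap of 0.796 of the range. Acsl6 was 7.65 CPM in ELA mouse 4, where the other ELA mice lay at or below 0.494 CPM, a gap of 0.949 of the range. The limit for 5 mice is 0.71.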

How the results depend on the processing

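Under all 15 alternatives 0 members had an adjusted p below 0.05. The members' median log2 fold change stayed positive in each, from 0.059 to 0.146 when 1 mouse was left out. When 1 mouse was left out, 3 to 9 members were higher at an unadjusted p below 0.05, against 2.26% to 4.53% of all genes. In the same fits 0 to 1 were lower, against 1.99% to 3.76% of all genes. Counts of all genes past the adjusted p moved more. Genes higher past the adjusted p numbered 6 by edgeR, 79 by DESeq2, 2 on plain library totals, 22 without a filter, 3 with counts summed per title number and 0 to 16 when 1 mouse was left out. Genes lower numbered 4, and in the same order 61, 2, 16, 0 and 0 to 9. The sign of the log2 fold change turned for Cpt1a without control mouse 3 (0.00785) and for Acadm without ELA mouse 1 (0.0078) or control mouse 2 (0.000242), and the cause was not tested. With 1 mouse left out at a time, these values lay between -0.19 and 0.00785 for Cpt1a and between -0.163 and 0.0078 for Acadm. The other 15 members given with a fold change and values per mouse kept their sign under every alternative. No paired analysis was possible because the groups share no title number. With 5 and 4 mice, the precision is that of the intervals given.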
